A study of Mus musculus with 15 samples.

Results

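The vascular, mural and meningeal genes described here were a list of 37 genes that are known markers of endothelial cells (19 genes), mural cells (10 genes) and fibroblasts (8 genes). They were found by symbol among 21889 genes of the deposited gene table, and all 37 were among the 15259 genes that passed the filter on low counts. Poly(A) RNA from mouse cerebellum was sequenced in 15 libraries, 3 in each of 5 groups. Of these, 4 groups were labelled GNP (granule neuron precursor), the name of the dividing cells that form cerebellar granule neurons. They were of 4 ages: E15.5, from mice whose genotype is given as Math1-GFP, and P1, P7 and P14, all labelled WT (wild type). Whether the cells of each age still divided is not given by the label. The fifth group, MB, came from medulloblastoma, a cerebellar tumour, in mice labelled Ptch1 heterozygous, with no age given. Math1 is another name for Atoh1, a gene of the granule lineage, and the labels do not say whether GFP was used to sort the E15.5 cells. All 5 groups were enriched on Percoll, a density gradient that selects no cell type by a marker, and the labels name no treatment. The labels do not say that the 3 libraries of a group came from separate animals, so p-values measure the spread between these libraries, which may be technical.

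The brain's blood vessels are lined by endothelial cells, which are joined by tight junctions and carry transporters that together form the blood-brain barrier. Pericytes and smooth muscle cells, the mural cells, wrap the vessel wall, and endothelial PDGF-B acting on the receptor PDGFRB holds pericytes at the capillary. Fibroblasts of the meninges and of the space around larger vessels make fibrillar collagens and small proteoglycans. In the young cerebellum, the layer of dividing granule precursors lies directly under the meninges while vessels grow into the tissue. None of the 37 genes is a known marker of granule neurons. In bulk libraries, fewer cells of a type and less RNA per cell cannot be told apart.

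Many endothelial genes carry sites for ETS transcription factors, the family of Erg and Fli1, 2 of the endothelial members. RefSeq promoters (mouse build GRCm38.p6, 250 bases before to 50 after the start) were at hand for 22 of the 37 members. The promoters of Tek, the angiopoietin receptor, of Tie1, its partner receptor, and of Kdr, the main VEGF receptor, are printed here as examples of endothelial receptor promoters that held a match. The promoter of Flt1, also a VEGF receptor, held no match to the 2 forms searched for and is not printed. Capitals mark each match to CAGGAA or CCGGAA, 2 forms of the ETS core that were searched for separately and on both strands. A match on the other strand is printed as its reverse complement. Other forms of the core were not searched for, so bases without capitals, and the promoter of Flt1, may still hold them. Tek lies at chr4:94739039-94739338 on the plus strand, Tie1 at chr4:118489800-118490099 on the minus strand and Kdr at chr5:75978406-75978705 on the minus strand.
Tek: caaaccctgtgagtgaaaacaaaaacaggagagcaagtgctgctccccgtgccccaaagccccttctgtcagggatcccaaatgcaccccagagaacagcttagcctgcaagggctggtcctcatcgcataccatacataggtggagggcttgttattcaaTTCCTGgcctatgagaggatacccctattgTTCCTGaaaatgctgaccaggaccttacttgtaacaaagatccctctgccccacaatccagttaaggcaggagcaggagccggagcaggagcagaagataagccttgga
Tie1: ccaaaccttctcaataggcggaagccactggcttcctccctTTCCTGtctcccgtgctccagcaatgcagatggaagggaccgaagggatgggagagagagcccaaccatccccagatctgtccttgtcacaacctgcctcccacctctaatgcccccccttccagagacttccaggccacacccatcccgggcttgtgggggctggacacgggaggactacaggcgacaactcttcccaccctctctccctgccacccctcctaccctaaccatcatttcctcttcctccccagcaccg
Kdr: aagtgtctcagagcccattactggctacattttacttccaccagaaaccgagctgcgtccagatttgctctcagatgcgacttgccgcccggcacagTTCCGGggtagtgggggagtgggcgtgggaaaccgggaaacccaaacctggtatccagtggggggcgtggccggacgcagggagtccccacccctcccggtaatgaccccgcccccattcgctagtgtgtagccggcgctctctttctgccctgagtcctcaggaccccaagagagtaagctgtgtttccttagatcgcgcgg
CAGGAA was present in a promoter of 7 of 12 endothelial, 3 of 6 mural and 0 of 4 fibroblast members. Over all 27025 genes of the table, 33.4% had it in a window of that length. CCGGAA was present for 1 of 12 endothelial, 0 of 6 mural and 1 of 4 fibroblast members, against 16.7% of all genes. The CArG box, the element bound by serum response factor in smooth muscle genes, was searched for only as CC, 6 bases of A or T, and GG. That strict form was found for 0 of the 22 members and for 1.81% of all genes. Forms with a G or C among the 6 inner bases, such as ccctatatgg in the Acta2 window, were not counted. These matches describe letters in a short window and do not show binding.

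The libraries held between 12597472 (E15.5 replicate 2) and 43443132 (E15.5 replicate 3) counts in genes. Levels are given as CPM, counts per 1000000 counts of a library whose size was adjusted by TMM scaling. The summed level of 12 granule lineage genes was 3237 to 8274 CPM over the 15 libraries, so the labelled lineage was present in every group. Its make-up differed between groups. Mean Atoh1 was 30.6 CPM at P7 and 11.9 at P14, whereas Gabra6 was 7.43 and 175 CPM and Cbln3 11.9 and 255 CPM. At P1, Gabra6 was 38.4 ± 55.1 and Cbln3 62.0 ± 84.3 CPM (SD, n = 3). Both P1 means lay above those of P7 with a wide spread between libraries, so neither gene rose steadily with age. Markers of other cells were present too: 12 astroglia genes summed to 417 to 574 CPM at E15.5 and to 2552 to 5825 CPM at P1, P7 and P14. The library labelled P1 replicate 3 stood apart in its oligodendrocyte genes, which summed to 4147 CPM against 382 and 835 in the other P1 libraries. Choroid plexus genes summed to 10446 CPM in P1 replicate 2 and 3947 in P1 replicate 3, against 322 in P1 replicate 1. MB replicate 1 held 757 CPM of microglia genes, against 283 and 242 in the other MB libraries. In 6 libraries (E15.5 replicates 1 and 3, all of P7 and MB replicate 1) the gene table appeared to be counted differently. This counting set was read from 1 gene, Tsnax. Its gene count there was 0.273% of that per transcript or less, against 92.4% or more in the other 9. The labels name no such set, and which setting differed is not known. This counting set separates all of P7 from all of P1 and P14. None of the 34 members with a matched transcript entry showed such a loss; Erg, Anpep and Col1a2 have none and could not be checked this way.

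The summed levels of all 3 classes were low at E15.5, higher at P1 to P14 and low in MB, where Sox18 was high and Abcc9, Tagln and Mgp overlapped P7. The summed level of 18 endothelial members (without Sox18, which is described separately) was 41.6, 43.2 and 89.6 CPM in E15.5 replicates 1 to 3, then 689, 962 and 1091 at P1 and 643, 602 and 549 at P7. It reached 1400, 1438 and 1375 CPM at P14 and was 54.6, 74.6 and 78.3 in MB. The E15.5 and MB libraries therefore overlapped, and every P1, P7 and P14 library lay above all of them. The 10 mural members summed to 19.5, 18.0 and 41.3 CPM at E15.5, 293, 458 and 652 at P1, 353, 445 and 256 at P7, 851, 988 and 849 at P14, and 50.3, 30.7 and 29.1 in MB. The 8 fibroblast members summed to 13.3, 12.9 and 10.8 CPM at E15.5, 559, 793 and 395 at P1, 433, 257 and 222 at P7, 399, 411 and 326 at P14, and 23.7, 20.5 and 14.1 in MB. Endothelial and mural sums were highest in all 3 P14 libraries, whereas the highest fibroblast sums were in P1 replicates 1 and 2.

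**Figure D1:**
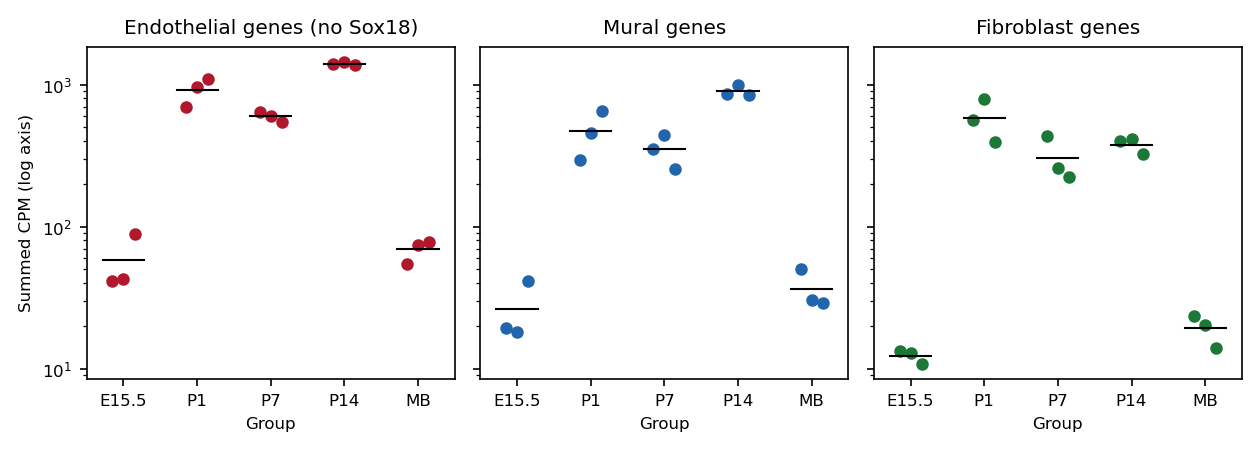
Summed CPM (log axis) of 18 endothelial, 10 mural and 8 fibroblast members by group, with 1 point per library and a bar at the mean of 3. The P14 points lie highest for endothelial and mural members, and the fibroblast points of P1 reach 793 CPM; E15.5 and MB lie at the bottom in each panel.

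Per kilobase of transcript, the levels at P14 ran from 168 CPM per kb for Cldn5, which encodes the claudin that seals brain endothelial junctions, and 134 for Rgs5, a pericyte regulator of G protein signalling, down to 2.02 for Myh11, the smooth muscle myosin heavy chain, and 1.76 for Des, the muscle intermediate filament desmin. Itm2a, a membrane protein of brain endothelium, and Vtn, the matrix protein vitronectin, made by pericytes in brain, followed Cldn5 and Rgs5 with 80.9 and 78.2 CPM per kb. Of the 37 members, 34 could be given a length, since Erg, Anpep and Col1a2 had no matched entry in the transcript table.

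**Figure D2:**
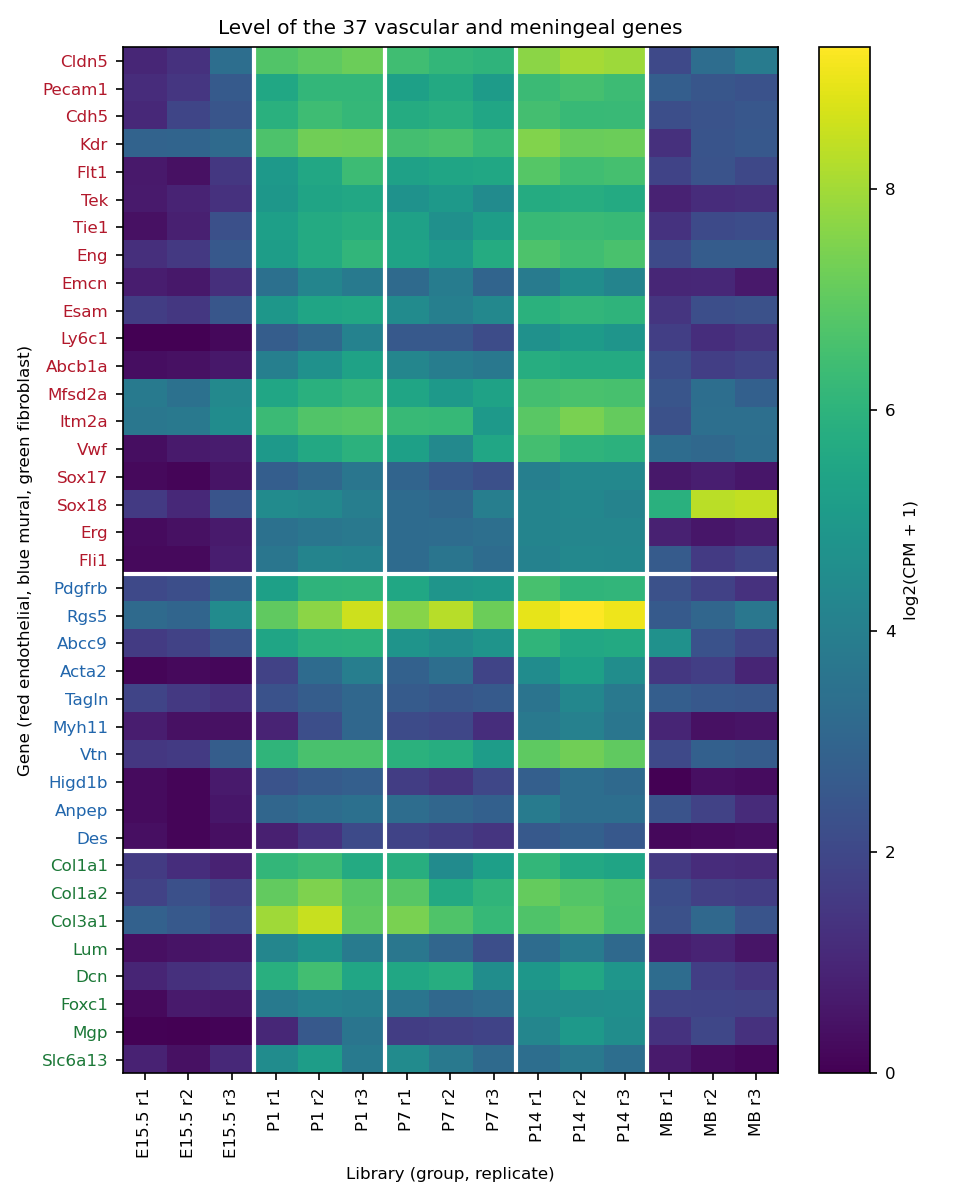
Level of each of the 37 members in each of the 15 libraries, as log2(CPM + 1) in colour, with members ordered by class and white lines between groups and classes. The E15.5 and MB columns are dark for nearly all members, and the Sox18 row is bright in MB.

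Between E15.5 and P1 all 37 members rose, and for all 37 no library of one group overlapped the other. Genes called higher made up 25.4% of all genes tested in this comparison and genes called lower 20.9%, by edgeR's quasi-likelihood test at a Benjamini-Hochberg false discovery rate (FDR) under 0.05. In no comparison was a share over all genes computed for groups without overlap, for unadjusted p, for DESeq2 calls or for any other refit. Counts of members of those kinds therefore have no background to be set against. No member was called lower, none had an unadjusted p under 0.05 in that direction, and DESeq2 called 36 higher (all but Abcc9) and 0 lower. The median log2 change was 4.73 for endothelial, 4.04 for mural and 5.59 for fibroblast members, against 0.03 over all genes tested. The genotype label changes from Math1-GFP to wild type between these ages, so age and genotype cannot be told apart here.

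Among the endothelial receptors, Kdr (mm9 chr5:76328852-76374483) stood at 6.67, 6.93 and 8.25 CPM at E15.5 and at 104, 152 and 152 CPM at P1. Its libraries did not overlap and its log2 change was 4.21 (SE 0.34, FDR 5.03e-07). Flt1, the VEGF receptor that acts as a decoy, stood at 0.567, 0.334 and 1.86 CPM at E15.5 and at 31.8, 46.4 and 82.2 CPM at P1, a log2 change of 5.68, or 6.74 without E15.5 replicate 3. Tek stood at 0.611, 0.919 and 1.52 CPM at E15.5 and at 29.1, 41.5 and 46.3 CPM at P1, and Tie1 at 0.349, 0.752 and 3.81 and at 36.6, 50.3 and 56.0 CPM. For these 4 receptors E15.5 replicate 3 held the highest E15.5 value and still lay under every P1 library. Eng, the TGF-beta co-receptor endoglin, went from 1.35 to 4.88 CPM over the E15.5 libraries to 35.4 to 68.4 CPM over the P1 libraries.

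Of the junction genes, Cldn5 (mm9 chr16:18776940-18778353) stood at 1.00, 1.50 and 9.17 CPM at E15.5 and at 108, 126 and 146 CPM at P1, with a mean of 127 ± 18.6 CPM (SD, n = 3). Its log2 change was 4.93 (SE 0.67, FDR 3.97e-05), and E15.5 replicate 3 was the high library of the low group. Without that library the log2 change was 6.65. The adhesion genes Pecam1 and Cdh5 (VE-cadherin) stood at 1.26 to 5.25 and 1.09 to 4.41 CPM at E15.5 and at 45.5 to 70.2 and 57.8 to 82.7 CPM at P1. Esam, an endothelial adhesion molecule, and Emcn, the sialomucin endomucin, stood at 1.84 to 4.60 and 0.501 to 1.39 CPM at E15.5 and at 29.4 to 45.9 and 9.74 to 17.5 CPM at P1. Vwf, the clotting protein von Willebrand factor, had the highest log2 change of the endothelial members with more than 10 counts at E15.5, 6.56 (SE 0.42, FDR 1.29e-07).

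The barrier genes differed in the size of the change. Mfsd2a, which carries lipids of docosahexaenoic acid and restrains vesicle transport, stood at 12.9, 9.94 and 19.6 CPM at E15.5 and at 44.1, 57.7 and 68.4 CPM at P1, a log2 change of 1.99 (SE 0.28, FDR 6.29e-05). Itm2a stood at 11.9, 12.4 and 21.8 CPM at E15.5 and at 78.4, 108 and 114 CPM at P1, a log2 change of 2.69 (SE 0.39, FDR 6.98e-05). Set against 1000 CPM of the other endothelial members (Sox18 left out), Mfsd2a was 280 to 448 CPM at E15.5 and 63.8 to 68.3 at P1, and Itm2a was 322 to 405 at E15.5 and 117 to 128 at P1. For both genes the E15.5 libraries lay above all P1 libraries on that relative scale. Abcb1a, the drug efflux pump P-glycoprotein of the mouse barrier, stood at 0.262, 0.334 and 0.525 CPM at E15.5 and at 15.2, 24.9 and 40.0 CPM at P1. Ly6c1, a surface antigen of capillary endothelium, had 6 counts in all at E15.5 and 765 at P1, a count ratio of 123 after library scaling with an exact 95% interval of 56.3 to 336 that covers counting error only. Abcb1a and Ly6c1 have close relatives in the genome. Over the libraries of all groups with a transcript count, the gene table held 40.5% to 100% and 51.5% to 85.7% of their transcript counts. Their level is uncertain where that share was low.

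The endothelial transcription factors rose together with the structural genes. Erg stood at 0.218 to 0.578 CPM at E15.5 and 9.96 to 12.6 at P1, Fli1 at 0.167 to 0.683 and 11.5 to 17.2, and Sox17, a SoxF factor of arteries, at 0.0835 to 0.420 and 5.79 to 11.6 CPM. Sox18, another SoxF factor, stood at 2.01, 1.09 and 4.36 CPM at E15.5 and at 21.5, 18.96 and 14.5 CPM at P1, a log2 change of 2.80 (SE 0.56, FDR 9.47e-04), or 3.46 without E15.5 replicate 3. For each of the 4 factors every P1 library lay above every E15.5 library, and E15.5 replicate 3 was the highest of its group.

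Mural genes showed the same step with a wider spread among the P1 libraries. Rgs5 stood at 8.29, 7.10 and 21.2 CPM at E15.5 and at 127, 202 and 379 CPM at P1, a log2 change of 4.25 (SE 0.50, FDR 1.23e-05). Pdgfrb stood at 3.10, 3.67 and 6.83 CPM at E15.5 and at 37.3, 65.3 and 65.7 CPM at P1, a log2 change of 3.60. Vtn stood at 1.83, 2.00 and 5.75 CPM at E15.5 and at 65.8, 98.2 and 98.2 CPM at P1, a log2 change of 4.71. These are pericyte genes, and the E15.5 and P1 libraries lay apart for each. Without E15.5 replicate 3 the log2 changes of Rgs5 and Vtn were 4.88 and 5.46. Abcc9, the channel subunit SUR2, stood at 2.05 to 4.18 CPM at E15.5 and 42.8 to 60.7 at P1, Anpep (aminopeptidase N) at 0.0835 to 0.473 and 7.30 to 9.68, and Higd1b at 0.0835 to 0.578 and 4.16 to 5.99 CPM. The contractile genes were highest in the library labelled P1 replicate 3. Acta2, smooth muscle actin, had 9 counts in all at E15.5 and stood at 2.53, 8.45 and 14.7 CPM at P1, a count ratio of 71.4 (exact 95% interval 37.4 to 157). Myh11 stood at 0.334 to 0.654 CPM at E15.5 and 0.901 to 7.57 at P1, and Des at 0.0835 to 0.315 and 0.772 to 3.20 CPM. Tagln, the actin-binding protein transgelin, rose least of the 37, from 2.70, 1.92 and 1.50 CPM to 4.03, 5.62 and 7.57 CPM, a log2 change of 1.50 (FDR 0.0012).

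All 8 fibroblast members rose, with the highest median change of the classes. Col3a1, the type III collagen chain (mm9 chr1:45368383-45406551), stood at 6.32, 5.01 and 3.73 CPM at E15.5 and at 246, 360 and 130 CPM at P1, a log2 change of 5.62 (SE 0.45, FDR 4.66e-07). The type I collagen chains Col1a1 and Col1a2 stood at 0.840 to 2.05 and 2.52 to 3.76 CPM at E15.5 and at 50.2 to 82.4 and 119 to 180 CPM at P1. The proteoglycans Lum (lumican) and Dcn (decorin) stood at 0.305 to 0.473 and 0.960 to 1.60 CPM at E15.5 and at 13.6 to 26.3 and 43.9 to 87.0 CPM at P1. In contrast to the mural genes, these 5 matrix genes were lowest at P1 in the library labelled P1 replicate 3. Foxc1, a transcription factor needed for the meninges, went from 0.174 to 0.585 CPM to 12.9 to 16.6 CPM. Slc6a13, a GABA and taurine transporter of the leptomeninges, went from 0.334 to 1.10 CPM to 12.9 to 34.9 CPM, a log2 change of 4.81. Mgp, the calcification inhibitor matrix Gla protein, had 3 counts in all at E15.5 and 1.03, 5.08 and 11.1 CPM at P1, a count ratio of 145 (exact 95% interval 49.2 to 704). Its fitted log2 change was 7.01, and 6.10 without the library labelled P1 replicate 3.

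**Figure D3:**
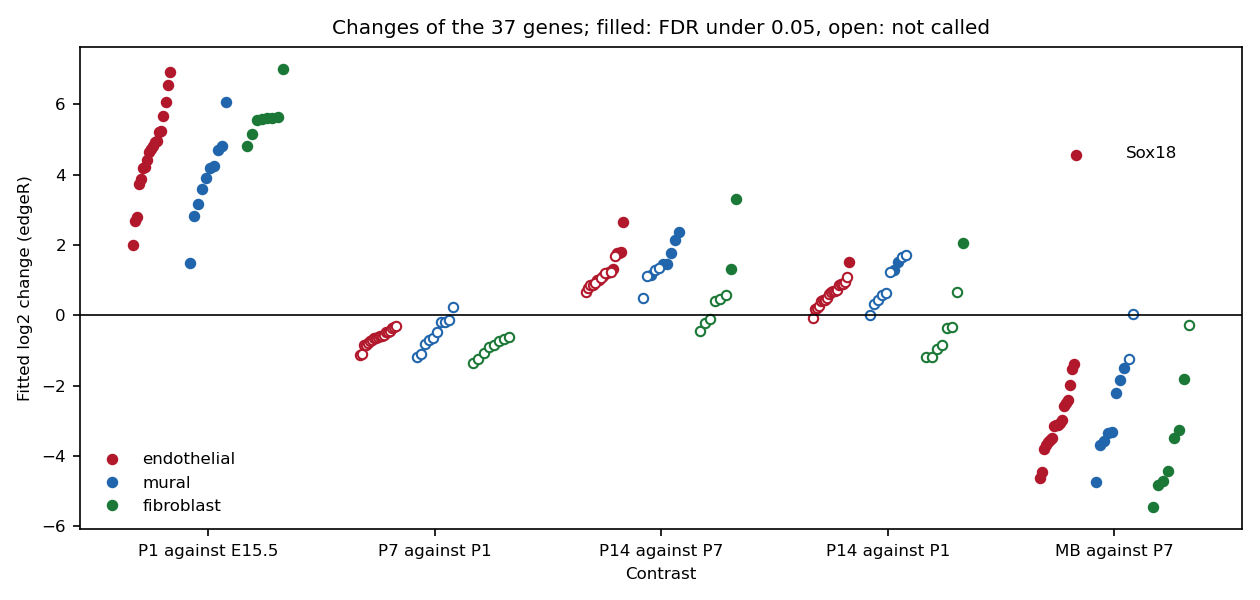
Fitted log2 change of each member in each of the 5 comparisons, with members sorted within each class, filled points for an FDR under 0.05 and open points for members not called. All points lie above 0 for P1 against E15.5, and 35 of 37 lie below 0 for MB against P7, where Sox18 stands alone at 4.56.

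Other vascular genes moved the same way at this step: 13 of 16 genes of barrier transport and junctions, 14 of 20 arterial, venous and other endothelial genes, 11 of 12 basement membrane genes, 16 of 18 other mural genes and 25 of 31 other fibroblast genes tested were called higher. Examples were the organic anion carrier Slco2b1 (log2 change 4.78), the receptor phosphatase Ptprb (5.23), the laminin chain Lama4 (4.30), the pericyte gene Atp13a5 (5.02) and the meningeal transporter Slc22a6 (5.55). Of 24 vessel growth genes 16 were called higher, among them Apln (4.59) and its receptor Aplnr (4.54), and 2 lower, the co-receptor Nrp2 (-2.35) and the ligand Wnt7b (-1.82). Called lower in the other lists were the venous factor Nr2f2 (-1.85), the arterial ligand Efnb2 (-0.67), the retinoid-binding Crabp2 (-2.72) and the growth factor binder Igfbp2 (-1.25). Markers of other cells were called higher as well, 11 of 12 microglia, 12 of 12 astroglia, 9 of 10 oligodendrocyte, 8 of 8 choroid plexus and 4 of 4 erythroid genes tested. Of 12 Purkinje cell and interneuron genes, 2 were called higher and 6 lower, and of 12 granule lineage genes 2 were higher and 1 lower. Erythroid genes summed to 12.1 to 48.4 CPM at E15.5 and 75.7 to 123 CPM at P1. The part of these other cells in the difference was not tested.

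Between P1 and P7 no member was called higher and none lower, against 1.40% and 1.74% of all genes tested. At an unadjusted p under 0.05 edgeR had 13 members lower and 0 higher, and DESeq2 called 6 lower (Col1a2, Esam, Foxc1, Higd1b, Lum and Ly6c1) and 0 higher. The fitted change was negative for 36 of 37 members, with a median of -0.66 against -0.01 over all genes, and the libraries of the groups did not overlap for 15. No share over all genes was computed for the sign of the change, for the count without overlap, at unadjusted p or by DESeq2. Lum stood at 18.3, 26.3 and 13.6 CPM at P1 and at 11.9, 7.34 and 3.70 CPM at P7, a log2 change of -1.34 that was not called (FDR 0.0680). Esam stood at 29.4, 43.0 and 45.9 CPM at P1 and at 21.2, 15.1 and 19.2 CPM at P7, a log2 change of -1.09 that was not called (FDR 0.0769). For both genes all P7 libraries lay below all P1 libraries. Without the library labelled P1 replicate 3, Col3a1 and Lum were called lower. Mgp was the only member called without P1 replicate 1, and Col1a2 the only member called without P7 replicate 1. Of the wider lists, 4 of 16 barrier genes, 5 of 31 other fibroblast genes, 2 of 24 vessel growth genes and 1 of 20 arterial, venous and other endothelial genes were called lower. None of the vascular, mural or fibroblast lists had a gene called higher. Examples were Ocln (log2 change -1.63), Osr1 (-2.41), Nrp1 (-1.24) and Ly6a (-2.19). P1 and P7 also differ in counting set, and that part cannot be told apart from age.

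Between P7 and P14, 18 of 37 members rose and 0 fell, against 5.81% and 4.51% of all genes tested that were called higher and lower. Those called were 10 of 19 endothelial members (Tek, Eng, Esam, Ly6c1, Abcb1a, Mfsd2a, Itm2a, Vwf, Sox17 and Erg), 6 of 10 mural members (Pdgfrb, Acta2, Tagln, Myh11, Vtn and Higd1b) and 2 of 8 fibroblast members (Foxc1 and Mgp). At an unadjusted p under 0.05 there were 28 higher and 0 lower, and DESeq2 called 23 higher and 0 lower. The median log2 change was 1.19 over the members and 0.00 over all genes. The libraries of the groups did not overlap for 18 endothelial, 10 mural and 2 fibroblast members. Neither for this nor for the unadjusted and DESeq2 counts was a share over all genes computed. Members called higher numbered 12, 3 and 9 without P7 replicate 1, 2 and 3 in turn. They numbered 8, 4 and 8 without P14 replicate 1, 2 and 3 in turn. For these fits, too, no share over all genes was computed. Ly6c1, Abcb1a and Mgp were called in all 6 of these fits.

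The 4 largest of these changes were in Mgp, Ly6c1, Myh11 and Acta2. Mgp stood at 2.25, 2.40 and 2.62 CPM at P7 and at 18.3, 31.0 and 22.2 CPM at P14, a log2 change of 3.30 (SE 0.58, FDR 0.00861). Ly6c1 stood at 5.03, 5.08 and 3.43 CPM at P7 and at 24.9, 33.2 and 27.5 CPM at P14, a log2 change of 2.66 (SE 0.44, FDR 0.00730). For both, P14 replicate 2 was highest and every P14 library lay well above every P7 library. Myh11 stood at 3.39, 2.95 and 1.35 CPM at P7 and at 12.5, 16.1 and 11.6 CPM at P14, a log2 change of 2.38 (SE 0.58, FDR 0.0221). Acta2 stood at 6.43, 9.33 and 2.70 CPM at P7 and at 21.8, 37.5 and 22.4 CPM at P14, a log2 change of 2.14 (SE 0.54, FDR 0.0243). Tagln, also contractile, stood at 5.41, 4.64 and 5.12 CPM at P7 and at 10.8, 18.6 and 12.5 CPM at P14, a log2 change of 1.47 (SE 0.30, FDR 0.0109). In all 3 contractile genes P7 and P14 did not overlap and P14 replicate 2 was the highest library.

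Barrier, junction and transcription factor genes were also among those called. Abcb1a stood at 18.3, 14.5 and 12.2 CPM at P7 and at 53.9, 50.7 and 49.97 CPM at P14, a log2 change of 1.78 (SE 0.31, FDR 0.00846). Mfsd2a stood at 42.9, 31.1 and 39.5 CPM at P7 and at 89.3, 97.0 and 95.9 CPM at P14, a log2 change of 1.31 (SE 0.28, FDR 0.0127). Esam stood at 59.5, 67.4 and 64.7 CPM at P14, a log2 change of 1.79 from P7 (SE 0.33, FDR 0.00879). The P14 libraries of these genes lay close together and above all P7 libraries. Cldn5 stood at 86.1, 69.6 and 65.5 CPM at P7 and at 205, 263 and 243 CPM at P14 without overlap, and its log2 change of 1.68 was not called (SE 0.57, FDR 0.0698). In a fit of P7 and P14 alone Cldn5 was called (FDR 4.83e-04), where the spread comes from these 6 libraries and not from the E15.5 and MB libraries. Sox17 stood at 6.93, 4.91 and 3.77 CPM at P7 and at 15.1, 19.3 and 19.2 CPM at P14, a log2 change of 1.78 (SE 0.35, FDR 0.00982), while the log2 change of Sox18 was 0.77 and not called (FDR 0.347).

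Of the fibroblast members, Foxc1 stood at 11.3, 7.81 and 8.86 CPM at P7 and at 23.0, 23.3 and 23.5 CPM at P14, a log2 change of 1.32 (SE 0.26, FDR 0.00960). The collagens and Slc6a13 were not called: Col1a1 stood at 21.1 to 55.8 CPM at P7 and 41.5 to 69.3 at P14, Col3a1 at 73.7 to 170 and 95.7 to 126, and Slc6a13 at 8.20 to 21.2 and 9.17 to 12.6 CPM. For these the P7 libraries spread widely, with P7 replicate 1 highest, and the P14 libraries lay within or near that spread. Dcn and Lum were not called either and stood at 22.2 to 53.8 and 3.70 to 11.9 CPM at P7 and at 28.1 to 46.9 and 8.06 to 13.5 CPM at P14.

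Of the wider lists at this step, 8 of 16 barrier genes, 7 of 20 arterial, venous and other endothelial genes, 7 of 24 vessel growth genes and 8 of 18 other mural genes were called higher, but 0 of 12 basement membrane genes and 4 of 31 other fibroblast genes. Examples were the organic anion carrier Slco1a4 (log2 change 2.18), the junction protein Ocln (2.14), the surface antigen Ly6a (3.50), the arterial gene Gkn3 (3.06), Mcam (1.66), Atp13a5 (1.64), Apln (1.70) and the pericyte ligand Pdgfb (1.49). Called lower were the Tek ligand Angpt1 (-1.49) and the fibroblast receptor Pdgfra (-1.07). The 10 oligodendrocyte genes summed to 934 to 2033 CPM at P7 and 6611 to 7161 at P14, and the choroid plexus genes to 26.1 to 2003 and 5179 to 8583 CPM. Their part in the members' change was not tested, and P7 and P14 differ in counting set.

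Between P1 and P14, both in the same counting set, 4 of 37 members rose and 0 fell, against 3.63% and 5.31% of all genes tested. The 4 were Ly6c1 (log2 change 1.52, SE 0.42, FDR 0.0382), Tagln (1.28, SE 0.29, FDR 0.0192), Des (1.53, SE 0.43, FDR 0.0401) and Mgp (2.05, SE 0.55, FDR 0.0343). At an unadjusted p under 0.05 there were 15 higher and 3 lower, and DESeq2 called 11 higher and 1 lower (Col3a1). No share over all genes was computed for these unadjusted and DESeq2 counts. Des stood at 0.772, 1.55 and 3.20 CPM at P1 and at 5.02, 6.15 and 4.85 CPM at P14, and the groups did not overlap for any of the 4 called members. The count of members called higher was 10 without the library labelled P1 replicate 3. It was 1 (Tagln) without P14 replicate 1 and 0 without any other of these libraries. For these fits, too, no share over all genes was computed. Without P1 replicate 3 the log2 changes of Des and Mgp were 2.19 and 2.96. The 10 oligodendrocyte genes summed to 382, 835 and 4147 CPM in P1 replicates 1 to 3 and to 6611 to 7161 CPM at P14, with 1 of them called higher, and their part in the members' change was not tested.

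The direction of the fitted change differed by class. It was positive for 18 of 19 endothelial and 10 of 10 mural members and negative for 6 of 8 fibroblast members. The medians were 0.65, 0.93 and -0.60, against 0.005 over all genes. Only 1 endothelial, 2 mural and 1 fibroblast member (Mgp) were called, all higher. No share over all genes was computed for the sign of the change. Col3a1 stood at 104, 126 and 95.7 CPM at P14 against 246, 360 and 130 CPM at P1, a log2 change of -1.18 that was not called (SE 0.37, FDR 0.0581). Slc6a13 stood at 9.17, 12.6 and 9.19 CPM at P14 against 22.0, 34.9 and 12.9 CPM at P1, a log2 change of -1.17 that was not called (SE 0.45, FDR 0.109). For both genes all P14 libraries lay below all P1 libraries, and P1 replicate 3 lay closest to P14. Both were called lower without the library labelled P1 replicate 3. Of the other fibroblast genes, 6 of 31 were called lower and 1 higher, with Osr1, a transcription factor (-2.43), and the matrix protein Fbln2 (-1.70) among the lower and the complement inhibitor Serping1 (0.95) the higher. The lymphatic and macrophage receptor Lyve1, chosen after its values were seen, stood at 5.75, 6.28 and 4.03 CPM at P1 and at 1.25, 1.96 and 1.97 CPM at P14, a log2 change of -1.63 (FDR 0.0251).

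Within the list, fibroblast genes made up less of the vascular signal at P14 than at P1. For every 100 CPM of endothelial members the fibroblast members had 81.1, 82.4 and 36.2 CPM at P1, 67.4, 42.8 and 40.5 at P7 and 28.5, 28.6 and 23.7 at P14. All P14 libraries lay below all P1 and P7 libraries. Mural members stood at 42.5, 47.6 and 59.8 CPM per 100 endothelial CPM at P1, 55.0, 73.9 and 46.7 at P7 and 60.8, 68.7 and 61.8 at P14, so the P7 libraries spanned those of P14. Per 1000 endothelial CPM, Col3a1 stood at 357, 374 and 119 CPM at P1 and at 74.3, 87.4 and 69.6 at P14, whereas Mgp stood at 1.49, 5.28 and 10.2 CPM at P1 and at 13.1, 21.6 and 16.1 at P14. Mgp, a fibroblast and smooth muscle gene, therefore ran against the other matrix genes on this scale. These ratios are descriptions with no test, and of the P1 libraries the one labelled P1 replicate 3 lay nearest to P14 in each of them.

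**Figure D4:**
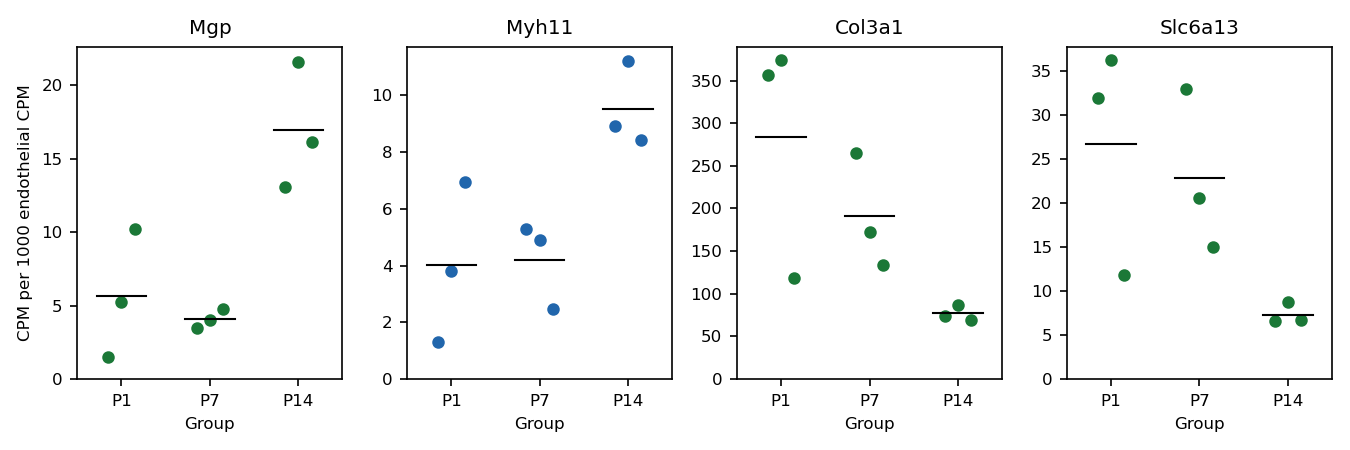
CPM of Mgp, Myh11, Col3a1 and Slc6a13 per 1000 CPM of the 18 endothelial members at P1, P7 and P14, with 1 point per library and a bar at the mean of 3. Mgp and Myh11 are highest at P14, and Col3a1 and Slc6a13 lowest, each without overlap with P1 or P7.

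In MB, 33 of 37 members were lower than at P7 and 1, Sox18, was higher, against 20.7% and 13.7% of all genes tested. The median log2 change was -3.15 over the members and 0.02 over all genes. The libraries of the groups did not overlap for 34 members, a count for which no share over all genes was computed. Abcc9, Tagln and Mgp were not called. With MB replicate 1, the MB library counted like the P7 libraries, as the only MB library, 28 members were called lower (Acta2, Anpep, Fli1, Ly6c1 and Myh11 no longer), with its spread taken from the other groups. For that fit, too, no share over all genes was computed. Genotype, tumour state and the age of the mice, which is not given for MB, cannot be told apart in this comparison.

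The largest fall was in Slc6a13. Slc6a13 stood at 21.2, 12.4 and 8.20 CPM at P7 and at 0.595, 0.244 and 0.120 CPM in MB, a log2 change of -5.45 (SE 0.58, FDR 4.44e-06), or -6.14 without MB replicate 1. Rgs5 stood at 191, 314 and 146 CPM at P7 and at 5.24, 7.35 and 11.7 CPM in MB, a log2 change of -4.75 (SE 0.52, FDR 5.33e-06). Kdr stood at 89.8, 97.6 and 75.2 CPM at P7 and at 1.43, 4.35 and 4.84 CPM in MB, a log2 change of -4.62 (SE 0.35, FDR 1.70e-07). No MB library came near the P7 libraries in these 3 genes. Col1a2 stood at 115, 48.8 and 66.7 CPM at P7 and at 3.57, 2.37 and 2.20 CPM in MB, a log2 change of -4.83 (SE 0.34, FDR 9.93e-08). Tek stood at 25.7, 31.1 and 21.1 CPM at P7 and at 0.833, 1.27 and 1.40 CPM in MB, a log2 change of -4.46 (SE 0.32, FDR 1.04e-07). Cldn5 stood at 3.13, 8.99 and 13.4 CPM in MB, a log2 change of -3.11 (SE 0.61, FDR 9.58e-04), and Pdgfrb at 3.97, 2.49 and 1.48 CPM, a log2 change of -3.70. Over all 33 members called lower, the log2 changes ran from -5.45 (Slc6a13) to -1.37 (Ly6c1).

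Some members fell less. Vwf stood at 37.6, 19.7 and 43.8 CPM at P7 and at 8.69, 7.84 and 9.29 CPM in MB, a log2 change of -1.97 (SE 0.32, FDR 2.09e-04). Fli1, which microglia also transcribe, stood at 8.59, 11.3 and 8.63 CPM at P7 and at 5.32, 1.95 and 2.76 CPM in MB, a log2 change of -1.52 (SE 0.39, FDR 0.00707). Its highest MB value was in MB replicate 1, the library with 757 CPM of microglia genes, and the part of microglia was not tested. Foxc1 stood at 2.78, 2.61 and 2.56 CPM in MB, a log2 change of -1.81 (SE 0.27, FDR 9.55e-05). Set against 1000 CPM of the other endothelial members (Sox18 left out), Kdr stood at 162, 194 and 159 CPM at P7 and at 26.8, 61.9 and 65.9 in MB, while Vwf stood at 62.1, 33.9 and 86.7 at P7 and at 189, 117 and 134 in MB. The groups did not overlap in either ratio, and the ratios moved in opposite directions. Abcc9 stood at 26.8, 21.7 and 26.6 CPM at P7 and at 24.9, 4.08 and 2.76 CPM in MB, a log2 change of -1.25 that was not called (FDR 0.104). MB replicate 1 was the high library, and without it Abcc9 had a log2 change of -2.86 and was called (FDR 9.17e-06). Tagln stood at 4.64 to 5.41 CPM at P7 and 4.64 to 5.87 in MB, and Mgp at 2.25 to 2.62 and 1.48 to 2.93 CPM, with groups that overlapped in both genes.

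Sox18 (mm9 chr2:181404541-181406345, minus strand) stood at 8.56, 7.64 and 14.8 CPM at P7 and at 59.1, 323 and 347 CPM in MB. All MB libraries lay above all other libraries of the series, the highest of which was P1 replicate 1 with 21.5 CPM, and MB replicate 1 was well below the other MB libraries. The mean was 243 ± 160 CPM in MB (SD, n = 3) and 10.3 ± 3.87 CPM at P7 (SD, n = 3), a log2 change of 4.56 (SE 0.58, FDR 2.25e-05). It ranked 66 of 15259 genes by log2 change. With MB replicate 1 as the only MB library the log2 change was 2.52 (FDR 1.46e-04), and without it 5.03 (FDR 4.64e-07). The transcript table held 1503, 13250 and 8714 counts for Sox18 in the MB libraries, close to the 1491, 13219 and 8680 counts of the gene table.

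Of the other transcription factor genes among the members, Sox17, Erg and Fli1 fell in the same libraries. Sox17 stood at 0.516, 0.733 and 0.480 CPM in MB against 3.77 to 6.93 at P7, a log2 change of -3.15, and Erg at 0.793, 0.489 and 0.640 CPM against 8.45 to 9.55, a log2 change of -3.81. Sox7, the remaining SoxF gene, chosen after its values were seen, stood at 0.595, 1.59 and 1.76 CPM against 8.97 to 9.73, a log2 change of -2.80 (FDR 6.69e-05). Prox1, a factor of lymphatic endothelium that some neurons also transcribe and also chosen after its values were seen, rose in MB, with 308, 238 and 264 CPM against 71.1, 83.1 and 75.3 CPM at P7 and a log2 change of 1.82 (FDR 1.28e-04). Per 1000 CPM of the 18 other endothelial members, Sox18 stood at 1083, 4327 and 4435 CPM in MB and at 12.2 to 48.7 CPM in the other 12 libraries. Of 9 tested genes within 150 kb of Sox18, 2 were called higher in MB, Tcea2 (1.41, FDR 1.14e-04) and Rgs19 (0.84, FDR 0.0118), and 3 lower, Oprl1 (-2.99), Myt1 (-1.56) and Samd10 (-1.25). Gli1, a target gene of the hedgehog pathway that Ptch1 restrains and also chosen after its values were seen, stood at 208, 781 and 651 CPM in MB, with MB replicate 1 again the lowest of the 3.

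**Figure D5:**
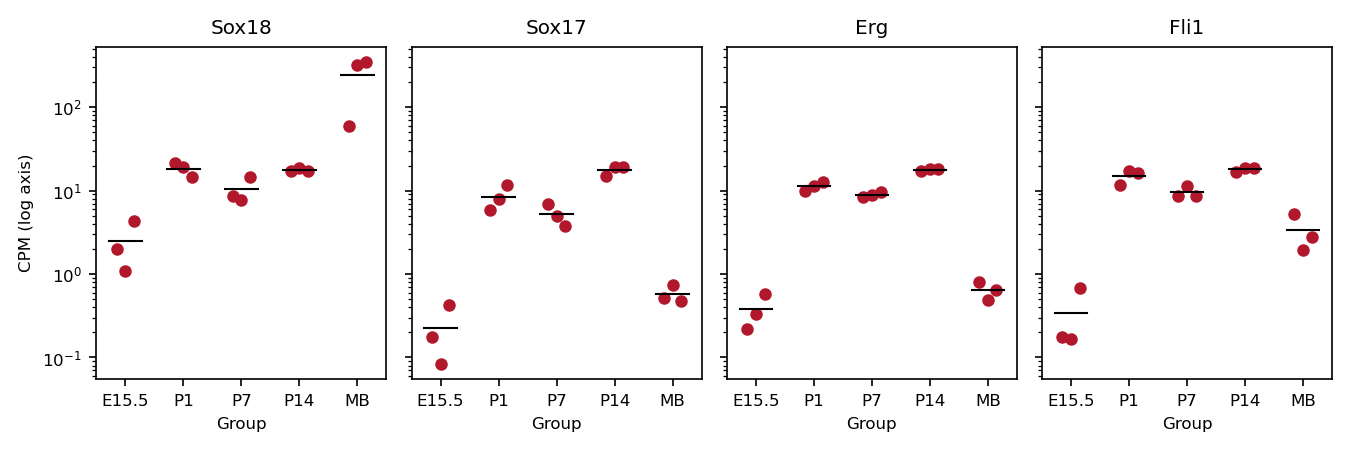
CPM (log axis) of the endothelial transcription factor genes Sox18, Sox17, Erg and Fli1 by group, with 1 point per library and a bar at the mean of 3. Sox18 is highest in MB (59.1 to 347 CPM), where Sox17 and Erg lie under 1 CPM.

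In the wider lists, MB was lower than P7 in 10 of 16 barrier genes, 11 of 24 vessel growth genes, 14 of 20 arterial, venous and other endothelial genes, 9 of 12 basement membrane genes, 11 of 18 other mural genes and 18 of 31 other fibroblast genes. The summed level of the barrier list was not lower, at 1307, 1944 and 1856 CPM in MB against 1270 to 1350 at P7, and its amino acid carrier Slc7a1 was called higher (0.95). Among the lower were Slc38a5, an amino acid carrier of the barrier (log2 change -4.11), Aplnr (-5.44), the netrin receptor Unc5b (-5.12), the arterial connexin Gja4 (-4.74), the basement membrane proteins Nid2 (-3.55) and Hspg2 (-3.48), and Slc22a6 (-8.76). Among those called higher were Foxd1, a transcription factor of stromal cells with 50.8 ± 34.3 CPM in MB (SD, n = 3) and a log2 change of 4.68, the Notch ligand Dll4 (1.16), and the laminin chains Lama5 (2.10), on the basement membrane list, and Lama1 (1.10). Microglia genes went the other way from the members, with 8 of 12 called higher and sums of 242 to 757 CPM in MB against 73.4 to 193 at P7. Many genes of other cell types fell with the members: 4 of 4 erythroid genes tested, 10 of 12 Purkinje cell and interneuron genes, 7 of 10 oligodendrocyte, 7 of 12 astroglia, 3 of 8 choroid plexus and 6 of 12 granule lineage genes were called lower. Called higher were 2 of 10 oligodendrocyte, 1 of 12 astroglia and 2 of 12 granule lineage genes. The granule lineage was thus split, with Atoh1 (3.19) and Barhl1 (1.30) higher and Neurod2 (-5.69) and Gabra6 (-3.73) among the lower. Erythroid genes summed to 0.595 to 7.28 CPM in MB against 57.7 to 103 at P7, Purkinje cell and interneuron genes to 135 to 173 against 530 to 1214, and oligodendrocyte genes to 221 to 522 against 934 to 2033. The part of these other cells in the difference was not tested.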

How the data were processed

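The authors deposited raw read counts per gene, per transcript and per transcription start site (TSS) model for each of 15 libraries, none of them normalized. Per the submitters' processing notes, Trimmomatic, TopHat, StringTie and HTSeq and the genome build mm9 were used, and their versions and settings are not given in the sources used here. Summary lines that name no gene were left out, and 39.5% to 55.4% of a library's records were counted in genes. Gene counts were fitted with edgeR 4.0.16 (R 4.3.3): genes with a count of about 10 in a group's libraries were kept (15259 genes), library sizes were scaled by TMM, and 1 mean per group was fitted over all 15 libraries with 10 residual degrees of freedom. P-values of the quasi-likelihood test were adjusted by Benjamini-Hochberg over all genes tested. SE is the size of the log2 change over the square root of the F statistic. Differences are named where the FDR was under 0.05, or not called where a class turns on the gene; per context list, at most 2 called genes in each direction are named, with at least 1 CPM on average and no overlap between groups. Members and lists were chosen with earlier results of these data known. The fit was tested on simulated counts. Alternatives were DESeq2 1.42.0, no low-count filter, the groups compared alone, the replicate number as a block, the other deposited tables, 1 counting set alone and each library left out. Replicate numbers were not treated as pairs in the main fit. Correlations between libraries showed no pairing by number, but 3 libraries per group cannot settle it. Transcript positions are 1-based mm9 positions from the deposited transcript table.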

Additional observations from a re-analysis of the deposited data

How the results depend on the processing

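For P1 against E15.5 the count of members called stayed within 1.5 times under every alternative run, and so did the count of members lower in MB. For P7 against P1, DESeq2 called 6 members lower and a fit of only the 2 groups called 1 (Abcc9). For P14 against P7, 29 were higher in a fit of only the 2 groups and 11 in the TSS model table, which holds 25 of the 37 members. For P14 against P1, 11 were higher with DESeq2, 13 in only the 2 groups, 2 in the TSS model table and 8 inside 1 counting set, where 1 (DESeq2), 3 (2 groups) and 2 (counting set) were lower. In MB 0 were higher in the TSS model table, which has no matched entry for Sox18. With each library left out in turn, members lower at P7 than at P1 ranged from 0 to 2, members higher at P14 than at P7 from 3 to 12, and members higher and lower at P14 than at P1 from 0 to 10 and from 0 to 2. The log2 change of Col3a1 (P14 against P7) then ranged from -0.34 to 0.26 and that of Tagln (MB against P7) from -0.073 to 0.12, neither of them called. With the replicate block, 16 members were higher at P14 than at P7, and 5 were higher and 1 lower (Col3a1) at P14 than at P1. Libraries with the same number correlated from -0.43 to 0.38 in their deviations from the group means (7 of 30 pairs over 0.1), and 5 of 15 libraries correlated best with their own number. The summed endothelial level at P14 was 1455 CPM without TMM scaling. No share over all genes was computed for any of these alternatives. The causes of these shifts were not tested beyond the smaller tables. At E15.5 depth limits Ly6c1, Mgp and Acta2, with under 10 counts each over 3 libraries.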
